A study of Mus musculus with 9 samples.

Results

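The 36 genes described here encode the proteins that take up glucose, break it down to pyruvate and lactate, divert it into the pentose phosphate pathway, and tie that flow to oxygen. They were listed by name in pathway order, and a gene was kept if the deposited table had a row for its Ensembl identifier. All 36 had a row among the 13708 genes of the table, and all 36 passed a filter that asked for 10 or more normalized counts in 4 or more samples, as did 13594 genes in all. Expression was measured by bulk RNA-seq of CD45+ F4/80hi CD11blow macrophages sorted from fetal livers (FL) at E15.5, with 5 Mrc1Cre Xpr1fl/fl samples and 4 Xpr1fl/fl samples as controls. Both genotypes carry *loxP* sites around exon 2 of *Xpr1*, the gene of an exporter of inorganic phosphate, and the Cre mice were heterozygous and on a C57BL/6JRj background like the controls. Cre is driven by *Mrc1*, the gene of CD206, which liver sinusoidal endothelial cells express as well as macrophages. How many embryos went into a sample, and whether samples came from separate litters, is not stated, so p-values measure the spread between these samples.

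Glycolysis splits glucose into pyruvate. Hexokinases trap the sugar, phosphofructokinase commits it, the lower enzymes from TPI1 to PKM recover ATP, and GAPDH takes up inorganic phosphate on the way. Lactate dehydrogenase turns pyruvate into lactate, while pyruvate dehydrogenase feeds it into the citric acid cycle of mitochondria, and the pentose phosphate pathway makes NADPH and ribose. Many of these genes are known targets of HIF-1α, which the prolyl hydroxylases EGLN1 and EGLN3 mark for destruction when oxygen is present, and macrophages are known to raise glycolysis when activated.

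*Xpr1* itself had 1173.5, 1187.4, 1073.7, 1285.3 and 1090.8 normalized counts in Mrc1Cre Xpr1fl/fl samples 1 to 5 and 1780.9, 1859.6, 2239.2 and 2046.7 in Xpr1fl/fl samples 1 to 4. All samples with Cre were below all controls (−0.77 on the log2 scale, SE 0.08, adjusted p = 4.13e-05 in limma). Counts of a whole gene include transcripts that lack only exon 2, so this value does not give the share of cells that recombined. Normalized counts are gene counts divided by the authors' DESeq2 normalization factors, so they can be compared between samples but the sequencing depth behind them is unknown. They were tested with limma as log2(normalized count + 1), a scale on which changes of low genes are understated, and adjusted p-values (Benjamini-Hochberg, 13594 genes) passed when under 0.05.

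The sorted populations differed in more than *Xpr1*, and 43.1% of all genes tested passed in either direction, a share against which the counts of marker genes are to be read. Genes of erythroid cells, whose maturation fetal liver macrophages support, were lower in Mrc1Cre Xpr1fl/fl samples for all 36 of 36 tested (37 were listed), with a median log2 fold change of −1.77. Their summed normalized counts ranged from 121647.1 to 353129.5 in Mrc1Cre Xpr1fl/fl samples and from 476352.0 to 738111.8 in controls. Hepatocyte genes fell for 15 of 15 (36718.1 to 47558.1 against 62281.7 to 108537.8 summed), endothelial genes for 12 of 14 (6912.1 to 8967.3 against 11434.7 to 15912.6) and genes of granulocytes and progenitors for 7 of 13 (5950.5 to 19035.0 against 10555.9 to 56794.8). The 14 macrophage genes were all detected, with 1 higher and 4 lower and sums of 339741.5 to 362147.0 against 344162.2 to 415440.7. Of 9 monocyte genes 2 rose and 4 fell, and of 16 cell cycle genes 2 rose and 5 fell, with sums that overlapped between the genotypes. No listed marker with a row was at 0 in every sample. In bulk samples, fewer cells of a type and less RNA per cell cannot be told apart. The column names also begin with dates: Mrc1Cre Xpr1fl/fl sample 5 and controls 1 to 3 carry the earliest of 3 dates, control 4 the middle one and Mrc1Cre Xpr1fl/fl samples 1 to 4 the latest. The later dates hold samples of 1 genotype only, so a fit with the date as a term compares Mrc1Cre Xpr1fl/fl sample 5 with controls 1 to 3.

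Most of the glucose genes were higher in Mrc1Cre Xpr1fl/fl macrophages. Of the 36 genes, 23 were higher and 7 lower past the threshold and 6 did not pass, with a median log2 fold change of 0.29. Among all genes tested, 21.5% were higher and 21.6% lower (43.1% in either direction), and the median was 0.00. The values of the genotypes did not overlap for 24 of the 36 genes, against 34.1% of all genes. The members together took 1.39% to 1.6% of a sample's normalized counts in Mrc1Cre Xpr1fl/fl samples and 1.09% to 1.21% in controls. Scaling to the 75th percentile gave 20 higher and 8 lower members with no change of sign (*Pdha1*, *Taldo1* and *Hif1a* no longer passed, and *Hk3* did), and over all genes it moved the split from 2926 higher and 2939 lower to 1999 higher and 3707 lower.

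**Figure D1:**
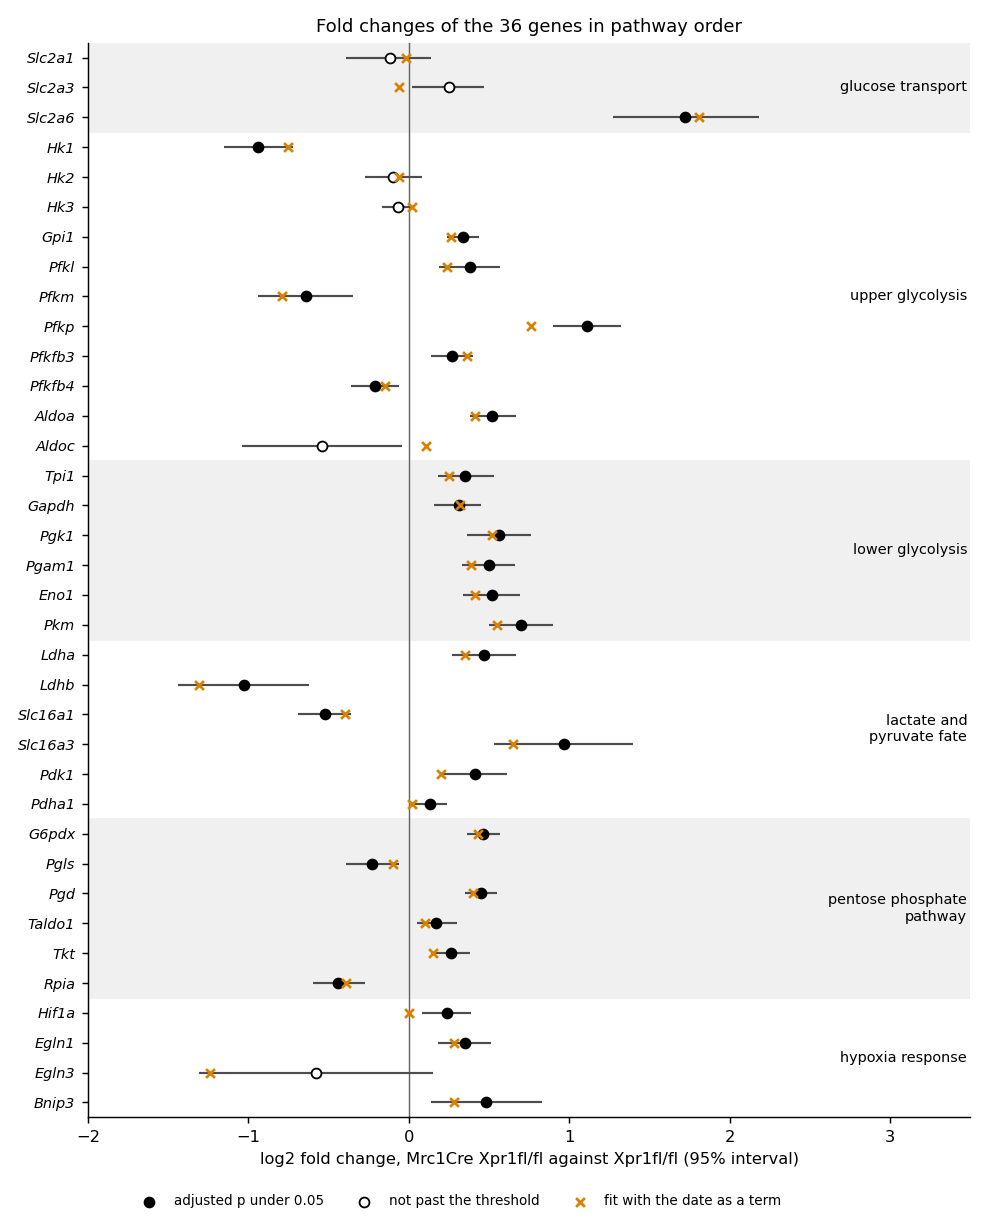
Log2 fold change of each of the 36 genes (Mrc1Cre Xpr1fl/fl against Xpr1fl/fl, limma, n = 5 and 4) on the x axis, in pathway order from top to bottom. Lines are 95% intervals, filled circles passed the threshold, open circles did not, and crosses give the fit with the date as a term. All 6 genes of lower glycolysis lie to the right of 0, while the genes of a family lie on either side of it, as for *Pfkm* (−0.64) and *Pfkp* (1.11).

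The members lie on many chromosomes. In GENCODE annotation of GRCm39, the build of the authors' index, *Pfkp* (ENSMUSG00000021196, chr13:6629798-6698970, minus strand), *Pkm* (ENSMUSG00000032294, chr9:59563364-59586663, plus strand) and *Hk1* (ENSMUSG00000037012, chr10:62104621-62215687, minus strand) are on different autosomes, as are *Ldhb* (ENSMUSG00000030246, chr6:142435672-142454586, minus strand) and *Slc16a3* (ENSMUSG00000025161, chr11:120838846-120851694, plus strand), and *G6pdx* (ENSMUSG00000031400, chrX:73449857-73472819, minus strand) is on the X chromosome.

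With the date as a term, 9 members were higher and 2 lower past the threshold (limma), where 8.78% of all genes passed in either direction. All 30 members that passed in the fit over all samples kept their sign, although the difference of *Hif1a* was 0.00. Of the 6 that had not passed, 3 kept theirs. The samples compared here also took part in the fit over all samples, so kept signs are not separate evidence. The 9 higher genes were *Slc2a6*, *Pfkp*, *Aldoa*, *Pgk1*, *Pgam1*, *Pkm*, *Slc16a3*, *G6pdx* and *Pgd*, and the 2 lower ones *Hk1* and *Ldhb*. Against the 3 controls of its date, Mrc1Cre Xpr1fl/fl sample 5 lay above all for 20 of the 23 members called higher and below all for 6 of the 7 called lower. These samples also took part in making the calls, so this count is not separate evidence, and its share over all genes was not examined. With the mean log2 value of the erythroid genes as a covariate, 0 members passed in either direction in limma, and 4 were higher and 0 lower at an unadjusted p under 0.05. The median log2 fold change of the members was 0.11 in that fit, against 0.29 without the covariate, and that of lower glycolysis 0.19, against 0.51. Not every difference shrank: *Pfkm* was at −0.79, against −0.64, and *Slc2a6* at 1.99, against 1.72. Among all 13594 genes tested, that fit called only 12 higher and 4 lower, so the 0 is not particular to the members. That score followed the genotype (r² = 0.862, variance inflation 7.25), so the lower erythroid RNA and the genotype cannot be told apart in these samples.

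**Figure D2:**
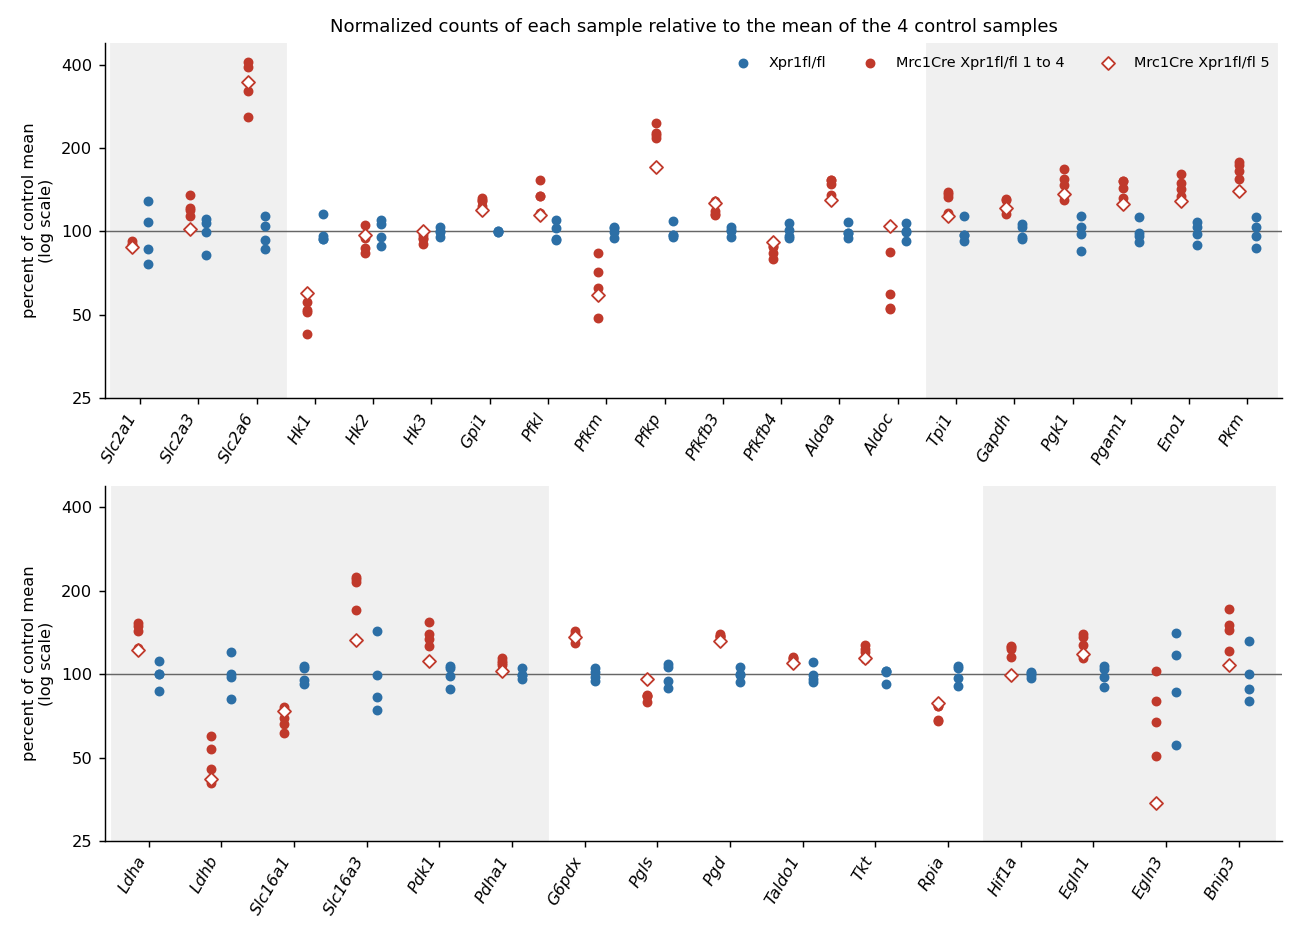
Normalized counts of each sample as a percent of the control mean (y axis, log scale) for the 36 genes in pathway order (x axis, italic symbols, shaded by pathway group). Blue points are the 4 Xpr1fl/fl samples, red points Mrc1Cre Xpr1fl/fl samples 1 to 4 and open diamonds sample 5, which shares its date with controls 1 to 3.

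The promoters of 4 members are shown because their genes belong to glucose use and differed in how they moved: *Ldha* and *Pgk1* were higher, *Pfkp* rose more, and *Slc2a1* did not pass. They were chosen after the values were seen, and are RefSeq promoters of GRCm38.p6 that run from 250 bases before to 50 bases after the gene's start. Capitals mark ACGTG, on either strand, the letters at the core of the hypoxia response element that HIF-1α binds. The *Ldha* promoter, the upstream one of 2 in the table, is chr7:46845554-46845853 (plus strand), that of *Pgk1* chrX:106186850-106187149 (plus strand), that of *Slc2a1* chr4:119108495-119108794 (plus strand) and that of *Pfkp* chr13:6648722-6649021 (minus strand).
Ldha: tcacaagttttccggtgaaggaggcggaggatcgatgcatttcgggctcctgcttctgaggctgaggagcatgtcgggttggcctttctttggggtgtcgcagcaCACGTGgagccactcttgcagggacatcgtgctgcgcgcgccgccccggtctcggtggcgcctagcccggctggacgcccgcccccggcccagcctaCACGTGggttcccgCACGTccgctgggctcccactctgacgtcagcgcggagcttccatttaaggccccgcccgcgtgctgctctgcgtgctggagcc
Pgk1: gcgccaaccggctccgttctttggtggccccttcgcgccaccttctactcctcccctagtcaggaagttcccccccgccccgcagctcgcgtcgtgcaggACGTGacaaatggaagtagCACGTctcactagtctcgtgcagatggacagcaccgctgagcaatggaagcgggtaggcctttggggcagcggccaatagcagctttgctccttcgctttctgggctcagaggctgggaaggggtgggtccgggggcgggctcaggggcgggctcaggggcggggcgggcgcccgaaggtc
Slc2a1: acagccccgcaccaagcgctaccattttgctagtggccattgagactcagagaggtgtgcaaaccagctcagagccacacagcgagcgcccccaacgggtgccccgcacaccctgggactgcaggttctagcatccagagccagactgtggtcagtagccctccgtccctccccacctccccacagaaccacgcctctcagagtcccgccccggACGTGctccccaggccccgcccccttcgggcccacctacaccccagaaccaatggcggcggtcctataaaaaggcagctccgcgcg
Pfkp: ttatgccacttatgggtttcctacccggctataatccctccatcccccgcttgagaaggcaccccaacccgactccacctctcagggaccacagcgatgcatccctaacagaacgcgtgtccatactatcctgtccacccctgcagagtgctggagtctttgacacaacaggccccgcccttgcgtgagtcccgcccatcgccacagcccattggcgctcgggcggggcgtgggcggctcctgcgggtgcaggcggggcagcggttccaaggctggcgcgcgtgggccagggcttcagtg
Counted on each strand, ACGTG was matched 5 times in the *Ldha* promoter shown, 2 times in that of *Pgk1* and 1 time in that of *Slc2a1*. It was matched 0 times in that of *Pfkp* and 0 times in the *Ldha* promoter not shown. The other core, GCGTG, was matched 4 times in the promoter of *Pfkp*, 2 times in each *Ldha* promoter, 1 time in that of *Slc2a1* and 0 times in that of *Pgk1*. In the *Ldha* promoter 2 of the runs in capitals are CACGTG, the E-box, which contains ACGTG on both strands and so counts 2 times each. Promoters were matched for 35 of the 36 members. ACGTG was in a promoter of 20 of them (57.1%), against 28.9% of the tested genes with a promoter, 21.8% of all genes and 19.6% of all promoters in the table. The list was made to include genes tied to oxygen, and many members are known targets of HIF-1α, so this share is not a finding about these samples. GCGTG was in promoters of 25 of the 35 (71.4%, against 54.6% of tested genes and 32.4% of all promoters), and CACGTG in those of 6 (17.1%, against 11.5% and 7.15%). Of the 23 members called higher, 12 had ACGTG. Among the matched members not called higher, *Slc2a1*, *Hk1*, *Hk2*, *Hk3*, *Pfkm*, *Aldoc*, *Slc16a1* and *Egln3* had it, and *Pfkfb4*, *Ldhb*, *Pgls* and *Rpia* did not. ACGTG was thus not more frequent in the members called higher. The letters TGACNNNGC of the antioxidant response element were in promoters of 5 members, *Hk1*, *Aldoa*, *Slc16a1*, *G6pdx* and *Pgd*, against 17% of tested genes and 12.4% of all promoters. A match of letters does not show that a factor binds.

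Glucose transport showed a change in 1 of its 3 genes, where 43.1% of all genes tested passed. *Slc2a6*, a transporter of lysosomal membranes that inflammatory stimuli are known to induce in macrophages, had 67.7, 55.8, 70.9, 44.7 and 60 normalized counts in Mrc1Cre Xpr1fl/fl samples 1 to 5 and 16.1, 15, 18.1 and 19.7 in Xpr1fl/fl samples 1 to 4. Every Mrc1Cre Xpr1fl/fl sample lay above every control, although counts were low in both genotypes (1.72 on the log2 scale, SE 0.21, adjusted p = 0.000105 in limma). *Slc2a1*, the basal glucose transporter GLUT1, had 4545.7, 4409.6, 4368.2, 4447.3 and 4328.3 normalized counts in Mrc1Cre Xpr1fl/fl samples 1 to 5 and 4253.2, 3743.9, 5337.9 and 6328.5 in Xpr1fl/fl samples 1 to 4. The genotypes overlapped, because controls 3 and 4 were the highest samples and control 2 the lowest (−0.12 on the log2 scale, SE 0.12, adjusted p = 0.44 in limma, 95% interval −0.39 to 0.14). *Slc2a3*, the high-affinity transporter GLUT3, had 905.4 ± 92.1 normalized counts (SD, n = 5) against 764.3 ± 97.4 (SD, n = 4) and did not pass (0.25 on the log2 scale, SE 0.10, adjusted p = 0.0695 in limma). Without Mrc1Cre Xpr1fl/fl sample 5 it did (limma adjusted p = 0.0282), and its range of adjusted p over the alternatives was 0.018 to 0.948.

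Of the 11 genes of upper glycolysis 5 were higher and 3 lower (21.5% and 21.6% of all genes tested), with a median log2 fold change of −0.07. The hexokinases differed from each other. *Hk1*, the housekeeping hexokinase that also serves red blood cells, had 1522.3, 1274.3, 1550.3, 1662.9 and 1789.5 normalized counts in Mrc1Cre Xpr1fl/fl samples 1 to 5 and 2797.8, 2799.5, 3459.5 and 2863.3 in Xpr1fl/fl samples 1 to 4. All Mrc1Cre Xpr1fl/fl samples lay below all controls, at 0.522 times their level (−0.94 on the log2 scale, SE 0.10, adjusted p = 4.51e-05 in limma; −0.75 within the earliest date). The erythroid genes given above fell in the same samples, and with their mean as a covariate the difference of *Hk1* was −0.32 and did not pass (limma adjusted p = 0.591, range over alternatives 1.83e-05 to 0.591). In that fit 0 of the 36 members passed, and the median rise of lower glycolysis also shrank, from 0.51 to 0.19. It therefore does not set *Hk1* apart, and the part of erythroid RNA in the fall of *Hk1* was not tested. *Hk2*, the inducible form, had 3453.4, 3844.0, 3036.6, 3174.3 and 3542.4 normalized counts in Mrc1Cre Xpr1fl/fl samples 1 to 5 and 3869.1, 3227.9, 4004.1 and 3471.2 in Xpr1fl/fl samples 1 to 4. *Hk3*, the hexokinase of myeloid cells, had 7039.7, 7391.6, 7598.2, 7377.5 and 7831.0 normalized counts in Mrc1Cre Xpr1fl/fl samples 1 to 5 and 7804.0, 7853.5, 7504.2 and 8145.6 in Xpr1fl/fl samples 1 to 4. Neither separated the genotypes (−0.10 on the log2 scale, SE 0.08, adjusted p = 0.373 in limma for *Hk2*; −0.07 on the log2 scale, SE 0.05, adjusted p = 0.236 in limma for *Hk3*), but after scaling to the 75th percentile *Hk3* passed as lower (log2 fold change −0.15, limma adjusted p = 0.0295, range over alternatives 0.0272 to 0.926). *Gpi1*, which turns glucose phosphate into fructose phosphate, had 16331.4, 16560.3, 15524.6, 16089.2 and 14961.0 normalized counts in Mrc1Cre Xpr1fl/fl samples 1 to 5 and 12587.3, 12451.3, 12569.1 and 12502.8 in Xpr1fl/fl samples 1 to 4. Controls differed from each other by 0.499% (coefficient of variation), and every Mrc1Cre Xpr1fl/fl sample was higher (0.34 on the log2 scale, SE 0.05, adjusted p = 0.000177 in limma; 0.26 within the earliest date).

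Among the phosphofructokinases, which catalyze the committed step, the platelet form rose most and the muscle form fell. *Pfkp* had 1415.0, 1555.8, 1378.1, 1441.5 and 1083.6 normalized counts in Mrc1Cre Xpr1fl/fl samples 1 to 5 and 617.4, 693.7, 607.4 and 615.9 in Xpr1fl/fl samples 1 to 4. The lowest Mrc1Cre Xpr1fl/fl sample, number 5, was still above the highest control (1.11 on the log2 scale, SE 0.10, adjusted p = 1.9e-05 in limma; 0.76 within the earliest date). *Pfkl*, the liver form and the most abundant of the 3 per kilobase, had 5381.6, 6188.4, 4688.3, 5411.2 and 4595.7 normalized counts in Mrc1Cre Xpr1fl/fl samples 1 to 5 and 3755.6, 3791.9, 4131.6 and 4406.3 in Xpr1fl/fl samples 1 to 4. Its samples separated by a smaller margin (0.38 on the log2 scale, SE 0.09, adjusted p = 0.00503 in limma; 0.24 within the earliest date). *Pfkm* had 246.0, 360.2, 422.0, 314.8 and 296.8 normalized counts in Mrc1Cre Xpr1fl/fl samples 1 to 5 and 518.3, 500.0, 521.2 and 477.2 in Xpr1fl/fl samples 1 to 4, so that all Mrc1Cre Xpr1fl/fl samples were below all controls but spread more widely than these (−0.64 on the log2 scale, SE 0.13, adjusted p = 0.00299 in limma; −0.79 within the earliest date).

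The bifunctional enzymes that set the level of the sugar bisphosphate that activates phosphofructokinase moved apart by smaller steps. *Pfkfb3*, whose product favors glycolysis, had 1238.6, 1382.0, 1230.6, 1267.8 and 1356.6 normalized counts in Mrc1Cre Xpr1fl/fl samples 1 to 5 and 1075.1, 1022.5, 1083.0 and 1113.0 in Xpr1fl/fl samples 1 to 4. It was higher in every Mrc1Cre Xpr1fl/fl sample (0.27 on the log2 scale, SE 0.06, adjusted p = 0.0033 in limma; 0.36 within the earliest date). *Pfkfb4* had 541.4, 594.0, 566.8, 599.1 and 622.7 normalized counts in Mrc1Cre Xpr1fl/fl samples 1 to 5 and 654.0, 687.3, 727.9 and 642.6 in Xpr1fl/fl samples 1 to 4. It was lower in every Mrc1Cre Xpr1fl/fl sample, with sample 5 (622.7) close to control 4 (642.6) (−0.21 on the log2 scale, SE 0.07, adjusted p = 0.0272 in limma; −0.15 within the earliest date). The call on *Pfkfb4* was lost without Mrc1Cre Xpr1fl/fl sample 1 or 3 (limma adjusted p = 0.0647 and 0.0584) and without control 2 or 3 (0.0601 and 0.0874), and its range of adjusted p over the alternatives was 0.00716 to 0.89.

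Aldolase, which splits the sugar, had an abundant and a scarce form. *Aldoa* had 36615.4, 36651.8, 32322.8, 35297.4 and 30913.8 normalized counts in Mrc1Cre Xpr1fl/fl samples 1 to 5 and 23537.4, 23512.7, 22552.1 and 25902.0 in Xpr1fl/fl samples 1 to 4, with no overlap between the genotypes (0.52 on the log2 scale, SE 0.07, adjusted p = 0.000155 in limma; 0.41 within the earliest date). *Aldoc* had 53.5, 33.4, 33.6, 38 and 66.9 normalized counts in Mrc1Cre Xpr1fl/fl samples 1 to 5 and 58.9, 63.6, 63.8 and 68.5 in Xpr1fl/fl samples 1 to 4. Mrc1Cre Xpr1fl/fl samples 2 to 4 were lowest and sample 5 lay within the controls, so that *Aldoc* did not pass (−0.54 on the log2 scale, SE 0.23, adjusted p = 0.0756 in limma). It passed without Mrc1Cre Xpr1fl/fl sample 5 (limma adjusted p = 0.018, range over alternatives 0.018 to 0.876), and within the earliest date the difference was 0.11.

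Lower glycolysis was the only group of the 6 in which every gene was higher and no genotype overlapped: 6 of 6 passed, with a median log2 fold change of 0.51. Among all genes tested, 21.5% were higher and 34.1% showed no overlap. In the fit with dates 3 of them passed, and the median was 0.40. *Gapdh*, the most abundant member, had 89259.6, 90369.0, 79596.3, 82113.7 and 83927.1 normalized counts in Mrc1Cre Xpr1fl/fl samples 1 to 5 and 65794.6, 71222.5, 64773.2 and 73328.5 in Xpr1fl/fl samples 1 to 4. The lowest Mrc1Cre Xpr1fl/fl sample, number 3, was above the highest control, number 4 (0.31 on the log2 scale, SE 0.07, adjusted p = 0.00357 in limma; 0.32 within the earliest date). *Tpi1*, triose phosphate isomerase, had 16951.0, 17347.1, 14555.4, 16537.6 and 14199.1 normalized counts in Mrc1Cre Xpr1fl/fl samples 1 to 5 and 12132.4, 12063.5, 11522.5 and 14124.3 in Xpr1fl/fl samples 1 to 4. Sample 5 and control 4 lay close together (0.35 on the log2 scale, SE 0.08, adjusted p = 0.00428 in limma; 0.25 within the earliest date).

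*Pgk1*, phosphoglycerate kinase, had 20908.2, 22700.7, 17549.9, 19813.5 and 18431.8 normalized counts in Mrc1Cre Xpr1fl/fl samples 1 to 5 and 13215.2, 13934.2, 11481.0 and 15259.9 in Xpr1fl/fl samples 1 to 4. The nearest samples of the genotypes were Mrc1Cre Xpr1fl/fl sample 3 and control 4 (0.56 on the log2 scale, SE 0.09, adjusted p = 0.00065 in limma; 0.52 within the earliest date). *Pgam1*, phosphoglycerate mutase, had 19202.1, 19213.5, 16634.3, 18025.8 and 15875.7 normalized counts in Mrc1Cre Xpr1fl/fl samples 1 to 5 and 11583.3, 12494.1, 12173.3 and 14179.8 in Xpr1fl/fl samples 1 to 4. The nearest were Mrc1Cre Xpr1fl/fl sample 5 and control 4 (0.50 on the log2 scale, SE 0.08, adjusted p = 0.000428 in limma; 0.39 within the earliest date). *Eno1*, enolase, had 44949.5, 48409.4, 40079.1, 42493.7 and 38595.4 normalized counts in Mrc1Cre Xpr1fl/fl samples 1 to 5 and 29382.3, 31001.0, 26836.4 and 32525.1 in Xpr1fl/fl samples 1 to 4. Every Mrc1Cre Xpr1fl/fl sample was higher (0.52 on the log2 scale, SE 0.08, adjusted p = 0.000428 in limma; 0.41 within the earliest date). *Pkm*, the pyruvate kinase of most tissues other than liver and red cells, had 62991.4, 64600.6, 55824.3, 59629.3 and 50572.3 normalized counts in Mrc1Cre Xpr1fl/fl samples 1 to 5 and 34808.2, 37681.5, 31534.7 and 40792.8 in Xpr1fl/fl samples 1 to 4. It had the largest log2 fold change of the 6 genes (0.70 on the log2 scale, SE 0.09, adjusted p = 0.000162 in limma; 0.55 within the earliest date).

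Processed copies of these genes limit how exactly their reads can be assigned. Of the sequence words of 31 bases in the coding sequence, transcripts of other genes also held 95.8% for *Pgk1*, 80.5% for *Gapdh*, 77.4% for *Aldoa*, 77.2% for *Bnip3*, 76.5% for *Pgam1*, 64.5% for *Eno1* and 50.6% for *Pkm*. For *Ldhb*, *Ldha*, *Gpi1*, *Tpi1*, *Taldo1* and *G6pdx* the share was 38.8%, 33.8%, 27.9%, 22.8%, 18.5% and 17%, and for the other members it was under 4%. The table had rows for 47 genes that held at least 10% of the words of *Gapdh*, and together these had 9.95% of its normalized counts. For *Pgk1* it was 1 gene, *Gm5537*, with 7.09%. Adding the rows of the copies to their gene moved the log2 fold change from 0.31 to 0.35 for *Gapdh* and from 0.56 to 0.61 for *Pgk1*, and left that of *Eno1* at 0.52 and that of *Pkm* at 0.70. Reads that had gone to copies without a row were not counted there.

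**Figure D3:**
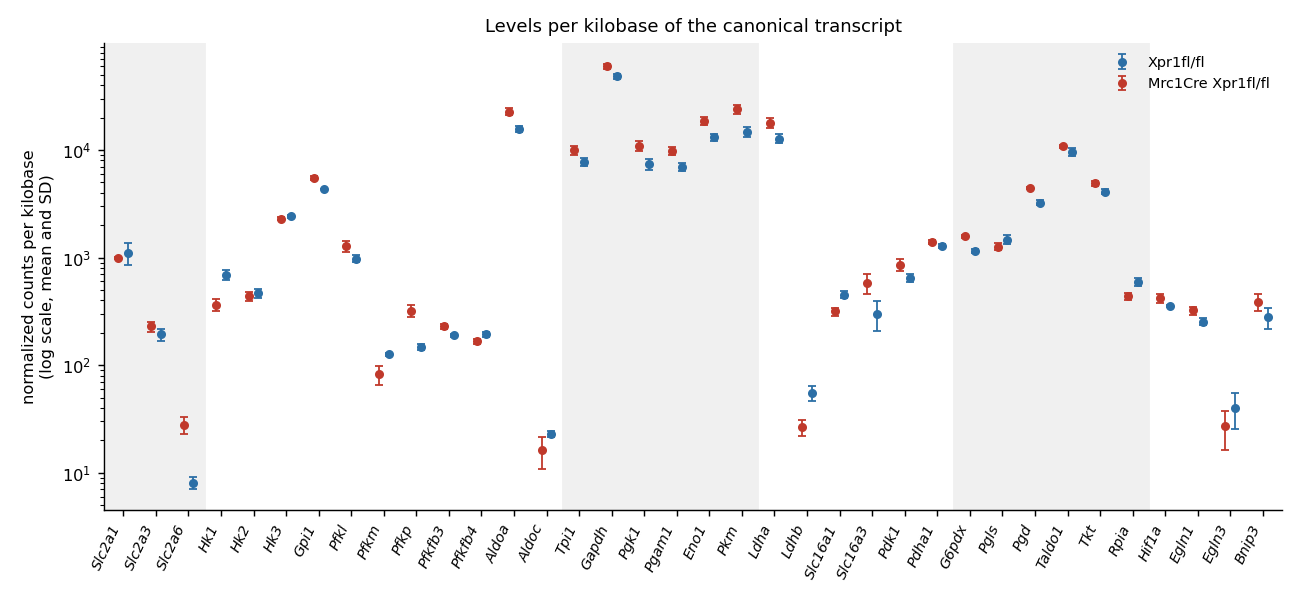
Mean normalized counts per kilobase of the canonical transcript (y axis, log scale) of the 36 genes in pathway order (x axis), with SD as error bars, for Xpr1fl/fl (blue, n = 4) and Mrc1Cre Xpr1fl/fl (red, n = 5) samples. *Gapdh* was the highest, *Slc2a6* the lowest in controls, and families such as *Aldoa* and *Aldoc* or *Ldha* and *Ldhb* were far apart in level.

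Genes that handle pyruvate and lactate all passed, 4 higher and 2 lower, where 43.1% of all genes tested passed. Their median log2 fold change was 0.27. *Ldha*, whose promoter is shown above, encodes the subunit of lactate dehydrogenase that favors lactate. It had 30489.2, 31300.0, 25332.3, 29196.9 and 24853.0 normalized counts in Mrc1Cre Xpr1fl/fl samples 1 to 5 and 20494.1, 20439.7, 17768.2 and 22749.6 in Xpr1fl/fl samples 1 to 4. Every Mrc1Cre Xpr1fl/fl sample was higher (0.47 on the log2 scale, SE 0.09, adjusted p = 0.00166 in limma; 0.35 within the earliest date). *Ldhb*, the subunit of oxidative tissues, had 38.4, 34.2, 50.5, 45.4 and 35.4 normalized counts in Mrc1Cre Xpr1fl/fl samples 1 to 5 and 84.6, 82.1, 101.8 and 68.4 in Xpr1fl/fl samples 1 to 4. These low counts were below every control in every Mrc1Cre Xpr1fl/fl sample, at 0.49 times the control level (−1.03 on the log2 scale, SE 0.19, adjusted p = 0.00128 in limma; −1.31 within the earliest date).

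Lactate leaves or enters cells through monocarboxylate transporters. *Slc16a3* encodes MCT4, the exporter of glycolytic cells, and had 3056.7, 3175.6, 2425.1, 3132.8 and 1883.9 normalized counts in Mrc1Cre Xpr1fl/fl samples 1 to 5 and 1170.1, 1055.5, 1403.7 and 2036.7 in Xpr1fl/fl samples 1 to 4. Mrc1Cre Xpr1fl/fl sample 5 lay below control 4, so the genotypes overlapped by that pair of samples (0.97 on the log2 scale, SE 0.20, adjusted p = 0.00254 in limma; 0.65 within the earliest date). *Slc16a1*, the gene of MCT1, had 1594.3, 1386.3, 1454.8, 1287.4 and 1535.4 normalized counts in Mrc1Cre Xpr1fl/fl samples 1 to 5 and 1984.2, 1932.0, 2191.7 and 2242.2 in Xpr1fl/fl samples 1 to 4. It was lower in every Mrc1Cre Xpr1fl/fl sample (−0.52 on the log2 scale, SE 0.07, adjusted p = 0.000248 in limma; −0.40 within the earliest date).

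*Pdk1*, the kinase that shuts pyruvate dehydrogenase, had 5247.4, 4541.3, 4303.0, 4752.7 and 3793.0 normalized counts in Mrc1Cre Xpr1fl/fl samples 1 to 5 and 3004.7, 3354.0, 3595.1 and 3642.0 in Xpr1fl/fl samples 1 to 4. Sample 5 was nearest to the controls (0.41 on the log2 scale, SE 0.09, adjusted p = 0.00392 in limma; 0.20 within the earliest date). *Pdha1*, the catalytic subunit of pyruvate dehydrogenase, rose by 0.13 on the log2 scale (SE 0.05, adjusted p = 0.0489 in limma), with 4046.8 ± 170.6 normalized counts (SD, n = 5) against 3696.0 ± 141.3 (SD, n = 4). That call was lost without each sample other than Mrc1Cre Xpr1fl/fl sample 5 and control 2, with limma adjusted p-values of 0.0701 to 0.126, and after scaling to the 75th percentile, and the range of adjusted p over the alternatives was 0.0211 to 0.928.

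The NADPH-forming dehydrogenases of the pentose phosphate pathway rose, while the other genes of the pathway went both ways. Of the 6 genes, 4 were higher and 2 lower (21.5% and 21.6% of all genes tested), with a median log2 fold change of 0.22. *G6pdx*, the entry enzyme, had 9398.3, 9733.3, 9473.5, 8792.1 and 9261.4 normalized counts in Mrc1Cre Xpr1fl/fl samples 1 to 5 and 6645.4, 6895.4, 7125.6 and 6418.0 in Xpr1fl/fl samples 1 to 4. All Mrc1Cre Xpr1fl/fl samples were higher, with coefficients of variation of 3.72% and 4.52% (0.46 on the log2 scale, SE 0.05, adjusted p = 4.73e-05 in limma; 0.43 within the earliest date). *Pgd*, the next dehydrogenase, had 15385.3, 15575.2, 15191.7, 15324.5 and 14740.0 normalized counts in Mrc1Cre Xpr1fl/fl samples 1 to 5 and 11845.1, 11210.3, 10503.3 and 11071.4 in Xpr1fl/fl samples 1 to 4. Its difference was of the same size (0.45 on the log2 scale, SE 0.05, adjusted p = 4.52e-05 in limma; 0.40 within the earliest date). *Pgls*, the lactonase that acts between them, had 1189.7 ± 89 normalized counts (SD, n = 5) against 1392.3 ± 130.3 (SD, n = 4) and overlapped (−0.23 on the log2 scale, SE 0.08, adjusted p = 0.0341 in limma). Its call was lost without any of Mrc1Cre Xpr1fl/fl samples 1 to 4 (limma adjusted p = 0.0641 to 0.0745) and without control 1 or 3 (0.0898 and 0.106), and its range of adjusted p over the alternatives was 0.009 to 0.987.

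In the non-oxidative branch, which exchanges sugars with glycolysis, *Tkt*, transketolase, had 16841.0, 16333.0, 15966.8, 15036.5 and 15108.5 normalized counts in Mrc1Cre Xpr1fl/fl samples 1 to 5 and 13583.6, 13598.9, 13548.0 and 12221.1 in Xpr1fl/fl samples 1 to 4. All Mrc1Cre Xpr1fl/fl samples were higher (0.26 on the log2 scale, SE 0.05, adjusted p = 0.00297 in limma; 0.15 within the earliest date). *Rpia*, which makes ribose phosphate, had 835.2, 734.2, 836.5, 743.6 and 855.3 normalized counts in Mrc1Cre Xpr1fl/fl samples 1 to 5 and 1163.1, 1052.2, 1143.9 and 983.2 in Xpr1fl/fl samples 1 to 4. It was lower in every Mrc1Cre Xpr1fl/fl sample (−0.44 on the log2 scale, SE 0.07, adjusted p = 0.000876 in limma; −0.39 within the earliest date). *Taldo1*, transaldolase, rose by the smallest step of the higher genes of the pathway, with 13691.4 ± 328.6 (SD, n = 5) against 12152.2 ± 935.2 (SD, n = 4) normalized counts and control 1 within the range of Mrc1Cre Xpr1fl/fl samples (0.17 on the log2 scale, SE 0.06, adjusted p = 0.0242 in limma). Leaving out Mrc1Cre Xpr1fl/fl sample 1 or 3 (limma adjusted p = 0.0549 and 0.0531) or control 2, 3 or 4 (0.0621, 0.0561 and 0.0707) ended that call, as did scaling to the 75th percentile (0.204), and the range of adjusted p over the alternatives was 0.00336 to 0.922.

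*Pgk1*, *Pdha1* and *G6pdx* lie on the X chromosome. *Ddx3y*, a gene of the Y chromosome, was expressed in 3 of the 5 Mrc1Cre Xpr1fl/fl samples and 2 of the 4 controls. With its log2 value as a covariate, an alternative chosen after the data were seen, the log2 fold changes were 0.55, 0.13 and 0.46, and *Pdha1* no longer passed (limma adjusted p = 0.0598).

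Of the 4 genes of the oxygen response 3 were higher (21.5% of all genes), with a median log2 fold change of 0.29, and 1 of 4 showed no overlap (34.1% of all genes). *Hif1a* had 2868.6 ± 275.0 normalized counts (SD, n = 5) against 2426.8 ± 57.8 (SD, n = 4) and passed (0.24 on the log2 scale, SE 0.07, adjusted p = 0.0191 in limma). Mrc1Cre Xpr1fl/fl sample 5, at 2418.7, lay within the controls, so that the difference within the earliest date was 0.00. After scaling to the 75th percentile the call on *Hif1a* was lost (limma adjusted p = 0.0731, range over alternatives 0.000771 to 0.995). *Egln1*, the main oxygen sensor among the hydroxylases, had 1567.4, 1429.8, 1284.4, 1522.5 and 1324.8 normalized counts in Mrc1Cre Xpr1fl/fl samples 1 to 5 and 1093.3, 1012.5, 1173.3 and 1203.8 in Xpr1fl/fl samples 1 to 4. All Mrc1Cre Xpr1fl/fl samples were above all controls (0.35 on the log2 scale, SE 0.08, adjusted p = 0.00415 in limma; 0.28 within the earliest date).

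*Egln3*, a hydroxylase that HIF-1α is known to induce, had 111.6, 86.4, 55, 72.5 and 37.2 normalized counts in Mrc1Cre Xpr1fl/fl samples 1 to 5 and 60.3, 93.3, 126.5 and 152.4 in Xpr1fl/fl samples 1 to 4. It overlapped widely, with coefficients of variation of 39.4% and 37%, and did not pass (−0.58 on the log2 scale, SE 0.33, adjusted p = 0.18 in limma, 95% interval −1.31 to 0.15). Within the earliest date the difference was −1.24, with Mrc1Cre Xpr1fl/fl sample 5 (37.2) below controls 1 to 3. *Bnip3*, a mitophagy receptor under HIF-1α, had 1413.7 ± 253.2 normalized counts (SD, n = 5) against 1015.7 ± 228.6 (SD, n = 4) and passed with overlap (0.48 on the log2 scale, SE 0.16, adjusted p = 0.0266 in limma). Its call was lost without Mrc1Cre Xpr1fl/fl sample 1, 2 or 4 (limma adjusted p = 0.0541, 0.057 and 0.0607) and without control 1, 2 or 3 (0.0737, 0.0789 and 0.052), and its range of adjusted p over the alternatives was 0.00322 to 0.851.

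Members of a family were compared by the log2 ratio of normalized counts of 2 genes in the same sample, which does not depend on how samples are scaled to each other. In bulk samples such a ratio also depends on the mix of cells. Erythroid, hepatocyte and endothelial RNA was lower with Cre, as given above, and its part in the ratios was not tested. Of 13 such ratios, 11 differed between the genotypes, 6 higher and 5 lower in Mrc1Cre Xpr1fl/fl samples, after Benjamini-Hochberg adjustment over the 13 (two-sided exact permutation test over 126 arrangements of the genotypes, smallest possible p = 0.00794). The genotypes did not overlap for 10 of the 13. These ratios restate differences of single genes given above, and several share a gene, so they are not separate evidence. Ratios of other gene pairs were not examined, so these counts have no share over all genes beside them. Within the earliest date, the difference had the same sign for 12 of the 13.

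Hexokinase counts in the bulk samples moved away from *Hk1*. The log2 ratio of *Hk3* to *Hk1* was 2.26 ± 0.17 (SD, n = 5) with Cre and 1.40 ± 0.19 (SD, n = 4) without it (exact permutation adjusted p = 0.0129; difference 0.86, and 0.77 within the earliest date). That of *Hk2* to *Hk1* was 1.13 ± 0.27 against 0.29 ± 0.12 (exact permutation adjusted p = 0.0129; difference 0.84, and 0.69 within the earliest date). No sample of a genotype lay within the range of the other for these ratios. The ratio of *Hk3* to *Hk2*, 1.13 ± 0.15 against 1.11 ± 0.18, differed by 0.02 (exact permutation adjusted p = 0.833). Levels of different genes were compared per kilobase of transcript, by the canonical length (chosen after the data were seen), the median and the longest of the protein-coding transcripts. By the canonical length, *Hk3* had 2310 normalized counts in Mrc1Cre Xpr1fl/fl samples and 2430 in controls, above *Hk1* (364 and 696) and *Hk2* (437 and 467). By the median length, *Hk1* came out above *Hk3* in controls (3330 against 2510), so the order of *Hk1* and *Hk3* there depends on the length used.

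Phosphofructokinase counts in the bulk samples moved from *Pfkm* to *Pfkp*. The log2 ratio of *Pfkp* to *Pfkm* rose from 0.33 ± 0.11 in controls (SD, n = 4) to 2.08 ± 0.31 in Mrc1Cre Xpr1fl/fl samples (SD, n = 5), a ratio of counts of 126% against 422% (exact permutation adjusted p = 0.0129; difference 1.75, and 1.55 within the earliest date). Against *Pfkl*, *Pfkp* rose by 0.73 (exact permutation adjusted p = 0.0129; 0.52 within the earliest date) and *Pfkm* fell by 1.02 (exact permutation adjusted p = 0.0206; −1.03 within the earliest date). *Pfkl* stayed the most abundant of the 3 per kilobase in both genotypes by each of 3 transcript lengths, with 1280 and 981 normalized counts per kilobase of the canonical transcript. The ratio of *Pfkfb4* to *Pfkfb3* fell from −0.66 ± 0.11 to −1.15 ± 0.06 (exact permutation adjusted p = 0.0129; difference −0.48, and −0.50 within the earliest date).

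**Figure D4:**
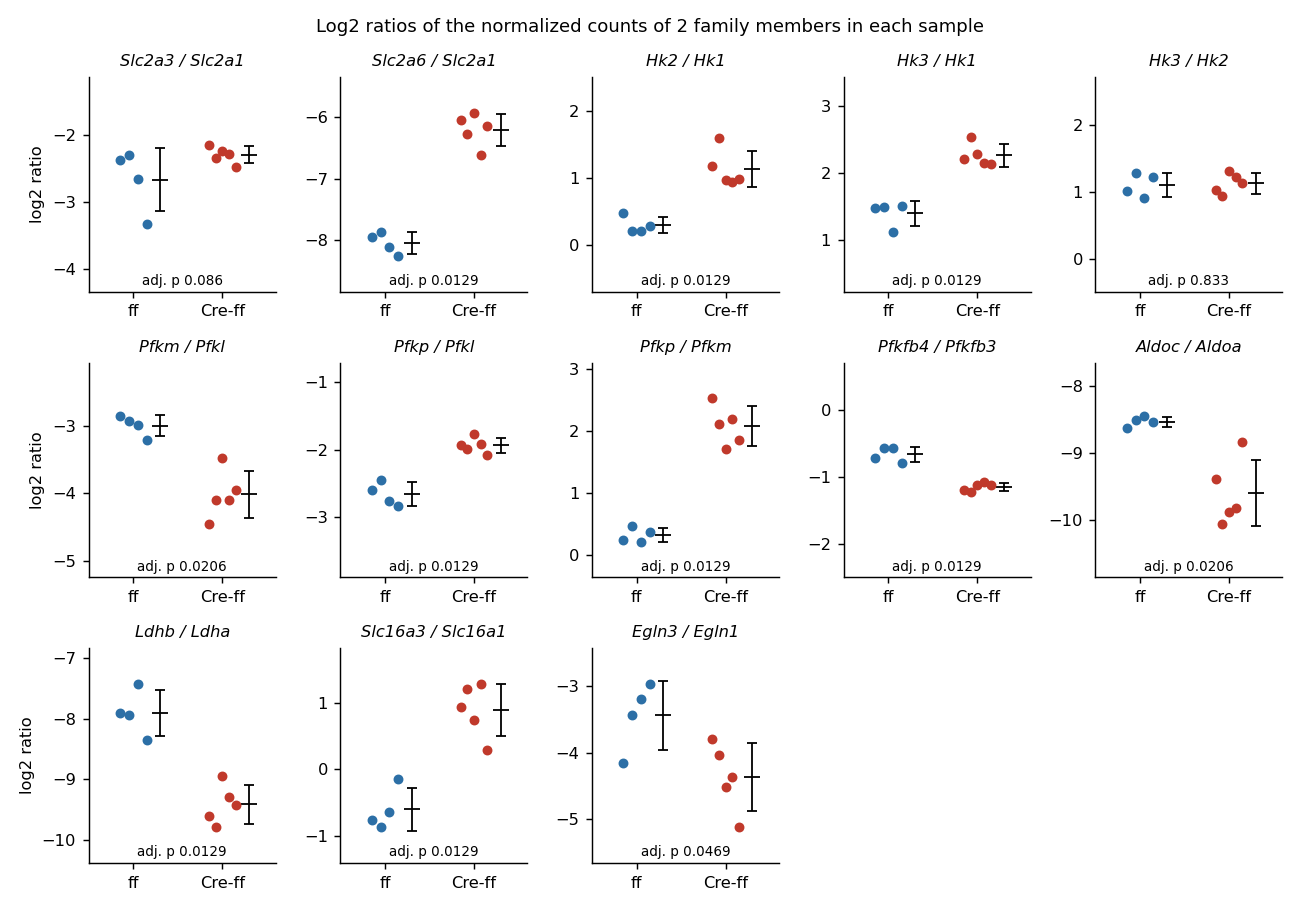
Log2 ratio of the normalized counts of 2 genes of a family (y axes, each with its own range) in each Xpr1fl/fl (ff, blue, n = 4) and Mrc1Cre Xpr1fl/fl (Cre-ff, red, n = 5) sample, with mean and SD in black and the adjusted p of the exact permutation test. The ratio passed the threshold in 11 of the 13 panels, and *Hk3* to *Hk2* and *Slc2a3* to *Slc2a1* did not.

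The ratios of the minor to the major form of lactate dehydrogenase and aldolase fell. *Ldhb* was 0.416% of *Ldha* in controls and 0.147% in Mrc1Cre Xpr1fl/fl samples, a log2 ratio of −7.91 ± 0.38 (SD, n = 4) against −9.41 ± 0.32 (SD, n = 5; exact permutation adjusted p = 0.0129; difference −1.50, and −1.66 within the earliest date). *Aldoc*, which did not itself pass while *Aldoa* rose, was 0.271% of *Aldoa* in controls and 0.129% in Mrc1Cre Xpr1fl/fl samples, with a difference in log2 ratio of −1.07 (exact permutation adjusted p = 0.0206). Within the earliest date this difference was −0.31, and Mrc1Cre Xpr1fl/fl sample 5 (−8.83) stood nearest to the controls (−8.62 to −8.44).

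The transporters of lactate exchanged their order by counts. The log2 ratio of *Slc16a3* to *Slc16a1* was −0.60 ± 0.32 in controls (SD, n = 4) and 0.89 ± 0.40 in Mrc1Cre Xpr1fl/fl samples (SD, n = 5), below 0 in 4 of 4 and above 0 in 5 of 5 (exact permutation adjusted p = 0.0129; difference 1.49, and 1.05 within the earliest date). Per kilobase of the canonical transcript *Slc16a3* had 301 normalized counts in controls and 582 in Mrc1Cre Xpr1fl/fl samples, and *Slc16a1* 454 and 316. With the longest transcript, *Slc16a1* remained just above *Slc16a3* in Mrc1Cre Xpr1fl/fl samples (304 against 293), so the change of order by level depends on the length used, while the change of the ratio does not.

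Among the glucose transporters, *Slc2a6* rose against *Slc2a1* by 1.85 on the log2 scale (exact permutation adjusted p = 0.0129; 1.83 within the earliest date), yet *Slc2a1* was far above it per kilobase of the canonical transcript in both genotypes (994 against 28 in Mrc1Cre Xpr1fl/fl samples and 1110 against 8.07 in controls). The ratio of *Slc2a3* to *Slc2a1* did not pass (difference 0.37, exact permutation adjusted p = 0.086), and within the earliest date its difference was −0.03. Without control 2 it passed after adjustment, with a difference of 0.49 (exact permutation p = 0.0357 before adjustment). The ratio of *Egln3* to *Egln1* fell from −3.44 ± 0.51 to −4.37 ± 0.50 and passed with overlap (difference −0.93, exact permutation adjusted p = 0.0469, and −1.52 within the earliest date). Yet of the fits with a sample removed only that without control 1 kept that call, and the other 8 differences lay between −1.07 and −0.74 (exact permutation p = 0.0571 to 0.0893 before adjustment).

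Other genes of glucose use, hypoxia and NADPH were read from lists that left out the 36, and their medians lay near 0. Of 60 other glucose pathway genes tested (75 were listed), 12 were higher and 24 lower, a share of 60% called against 43.1% of all genes, with a median log2 fold change of −0.03. The largest falls were those of *Slc2a4* (GLUT4; 42.4 ± 18.1 normalized counts against 170.0 ± 21.9, log2 fold change −2.08), *Pklr* (the pyruvate kinase of liver and red cells; 903.3 ± 261.5 against 2919.3 ± 299.8, −1.74), *Pdk2* (129.2 ± 24.5 against 329.2 ± 52.1, −1.35) and *Bpgm* (which makes the phosphoglycerate that tunes hemoglobin; 679.0 ± 282.3 against 1646.7 ± 369.4, −1.34). These values are means ± SD of 5 and 4 samples, and the limma adjusted p-values were 0.000211, 6.66e-05, 9.95e-05 and 0.00211. Erythroid genes fell in the same samples by a median of 1.77 on the log2 scale, as given above. With their mean as a covariate, *Slc2a4* (−0.35, limma adjusted p = 0.875), *Pklr* (−0.42, 0.724), *Pdk2* (−0.52, 0.679) and *Bpgm* (0.71, 0.444) did not pass, and 0 of the 60 genes did. That score followed the genotype, so this fit cannot tell these 4 genes apart from the rest, and the part of erythroid RNA in their falls was not tested. Within the earliest date, *Bpgm* differed by −0.52 and *Pklr* by −1.25.

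The largest rises were those of *Eno1b* (117.3 ± 25 against 54.4 ± 9.0 normalized counts, log2 fold change 1.08), *Gpd2* (the mitochondrial glycerol phosphate dehydrogenase, 0.59), *Tigar* (a phosphatase that slows glycolysis, 0.55) and *Ugp2* (the enzyme of UDP-glucose, 0.39), with limma adjusted p-values of 0.00131, 0.000534, 0.000847 and 0.000279 and no overlap between the genotypes. *Eno1b* holds 62.8% of the words of the *Eno1* coding sequence, so the split of reads between them is uncertain.

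**Figure D5:**
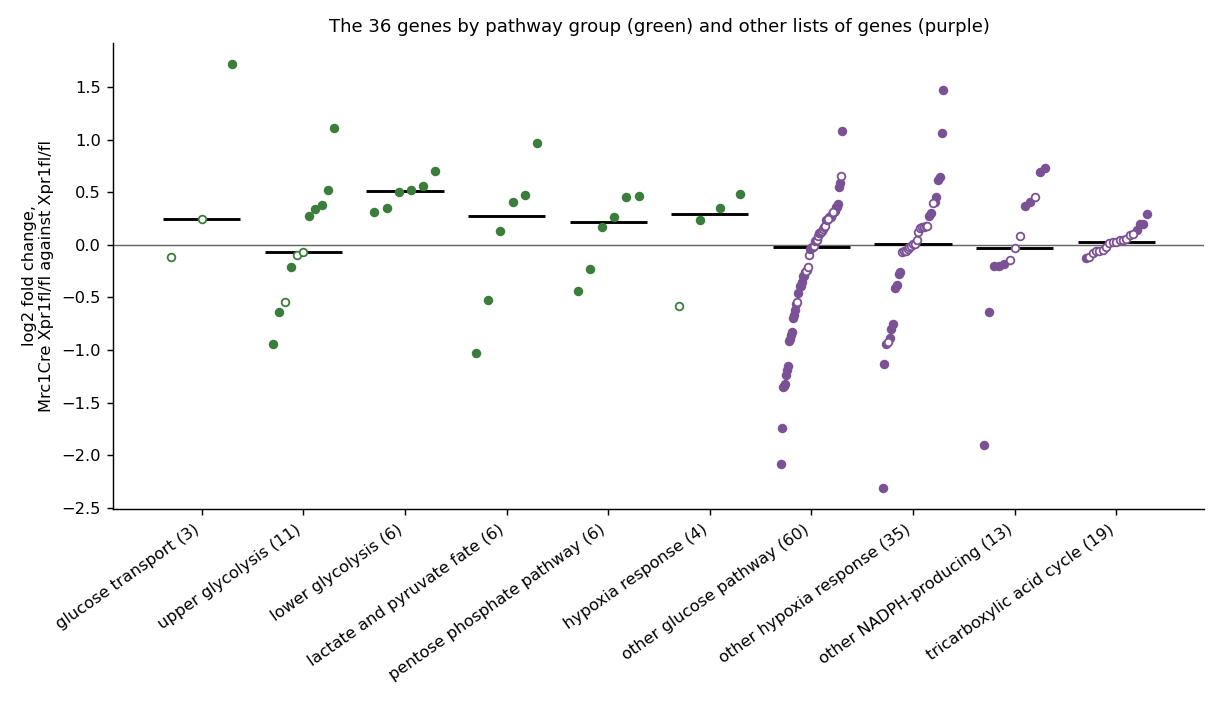
Log2 fold change (y axis, Mrc1Cre Xpr1fl/fl against Xpr1fl/fl) of the 36 genes by pathway group (green) and of the genes of 4 other lists (purple), with the number of genes tested in parentheses on the x axis. Filled circles passed the threshold, open circles did not, and bars are medians: 0.51 for lower glycolysis and between −0.03 and 0.03 for the 4 other lists.

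Of 35 other genes of the hypoxia response tested, 8 were higher and 10 lower, a share of 51.4% called against 43.1% of all genes, with a median log2 fold change of 0.01. *Adm*, adrenomedullin, had 45.1 ± 11 normalized counts (SD, n = 5) against 227.5 ± 59.6 (SD, n = 4), a difference of −2.31 on the log2 scale (limma adjusted p = 2.69e-05; −2.56 within the earliest date). *Epas1*, the gene of HIF-2α that endothelial cells express strongly, fell by 1.13 on the log2 scale (limma adjusted p = 0.000152), *Ndrg1* fell by 0.94 (limma adjusted p = 0.00422) and *Mxi1* fell by 0.89 (limma adjusted p = 1.92e-05), each without overlap. Endothelial genes fell in these samples too, with a median of −1.30, and their part in the fall of *Epas1* was not tested. *Ak4*, an adenylate kinase, rose by 1.47 (454.8 ± 132.0 against 171.5 ± 86.6; limma adjusted p = 0.00231), *Stc2* by 1.06 with overlap (limma adjusted p = 0.0127), *Kdm6b* by 0.64 (limma adjusted p = 2.16e-05) and *Ankrd37* by 0.62 (limma adjusted p = 0.0182).

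NADPH can also come from outside the pentose phosphate pathway. Of 13 other NADPH-producing or related genes, 4 were higher and 5 lower, a share of 69.2% called against 43.1% of all genes, with a median of −0.03. *Me1*, the cytosolic malic enzyme, rose by 0.73 on the log2 scale (509.8 ± 95.4 against 304.5 ± 38.9; limma adjusted p = 0.00211), and *Nadk*, the kinase that makes NADP, by 0.69 (5592.0 ± 235.8 against 3463.7 ± 73.5; limma adjusted p = 4.81e-06). *Mthfd2* rose by 0.41 and *Me2* by 0.37 (limma adjusted p = 0.00188 and 0.000155). *Aldh1l1*, a folate dehydrogenase that hepatocytes express strongly, fell by 1.90 (317.2 ± 59.8 against 1210.0 ± 359.5; limma adjusted p = 4.51e-05), *Nadk2* fell by 0.64, *Mthfd1* fell by 0.20 and *Idh1* fell by 0.20 (limma adjusted p = 0.000181, 0.0202 and 0.00917). Hepatocyte genes fell by a median of 1.10 in the same samples, and their part in the fall of *Aldh1l1* was not tested.

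The tricarboxylic acid cycle, which receives pyruvate after the dehydrogenase, showed little change. Of its 19 genes 4 were higher and 1 lower, a share of 26.3% called against 43.1% of all genes tested, and the median log2 fold change was 0.03. *Dld* rose by 0.29, *Cs* by 0.20 and *Ogdh* by 0.14, and *Idh3g* fell by 0.13 on the log2 scale (limma adjusted p = 0.00371, 0.0101, 0.0342 and 0.0374). After scaling to the 75th percentile 1 was higher and 3 were lower.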

How the data were processed

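Macrophages were sorted from fetal livers as CD45+ F4/80hi CD11blow cells, and mRNA libraries were made with a stranded kit from 45 ng of total RNA. Per the labels and the study's methods, the authors checked reads with FastQC, quantified them with salmon against GRCm39, summed transcripts to genes and divided the counts by DESeq2 normalization factors. The deposited table thus holds a normalized signal per gene and sample, not whole counts. In each sample 17.1% to 33.6% of low values lay within 0.1 of a whole multiple of a common step, so reads were not recovered, depth is unknown and no count test was run. The lowest mean of a gene in the table was 5.79. Each of the 9 value columns matched 1 sample (0 did not).

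Values were tested as log2(value + 1) with limma 3.58.1 in R 4.3.3 (linear model, empirical Bayes with trend, genotype only), for genes at 10 or more normalized counts in 4 or more samples, with Benjamini-Hochberg adjustment over 13594 genes. The script was tested on simulated data. Isozyme ratios were compared by an exact permutation test. Python 3.11.15, numpy 2.4.6, pandas 2.3.3 and matplotlib 3.10.9 were used, with GENCODE release M39 for symbols, coordinates and transcript lengths. The members and lists were chosen with earlier results of these data known. Every member was named, with all samples' values where it passed without overlap or belonged to an isozyme ratio that passed, and of each other list the 4 largest rises and falls with a mean of at least 50, of which 1 is not reported here. Alternatives were other pseudocounts, filters, scalings, variance settings, sample weights, a replicate block, a date term, an erythroid covariate, a limit on fold change and leaving out each sample. The covariate *Ddx3y* and the canonical length were added after the data were seen.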

Additional observations from a re-analysis of the deposited data

Results flagged for a closer look

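In 4 of 74 groups of samples tested for one value far from the rest (Dixon's criterion), 1 sample stood apart, where chance gives about 3.7. *Hk1* had 3459.5 normalized counts in Xpr1fl/fl sample 3, above the 2797.8 to 2863.3 of the other controls. *Pfkp* had 693.7 in Xpr1fl/fl sample 2, above the other controls at 607.4 to 617.4. *Pgls* had 1341.6 in Mrc1Cre Xpr1fl/fl sample 5, above the 1105.9 to 1172.9 of the other 4 samples of its genotype. *Tkt* had 12221.1 in Xpr1fl/fl sample 4, below the 13548.0 to 13598.9 of the other controls.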

How the results depend on the processing

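Over fits that left out each sample in turn, 20 to 24 members were higher and 5 to 8 lower, with a median log2 fold change of 0.27 to 0.31, and 10 to 11 of the 13 isozyme ratios passed. Among all genes, of which 13430 to 13544 were tested, these fits called 2491 to 3050 higher and 2324 to 3031 lower. Glucose transport then had 1 to 2 genes past the threshold (2 without Mrc1Cre Xpr1fl/fl sample 5) and the tricarboxylic acid cycle 3 to 5 (3 without Mrc1Cre Xpr1fl/fl sample 1, 2 or 3 or control 1, 2 or 3). Other pseudocounts and filters kept each member on its side of the threshold. The cause of the following changes was not tested. With the date as a term, which compares 1 sample with 3, 9 members were higher and 2 lower. Upper and lower glycolysis had 3 genes each past the threshold, lactate and pyruvate genes 2, pentose phosphate genes 2, hypoxia genes 0 of 4 (limma; 1 at an unadjusted p under 0.05), and the other lists 11 (glucose), 6 (hypoxia), 3 (NADPH) and 0 (tricarboxylic acid cycle; 1 unadjusted). The signs of *Slc2a3* (−0.06), *Hk3* (0.02) and *Aldoc* (0.11) changed. With the erythroid covariate, 0 members were higher and 0 lower, with 0 in each group and each other list (limma; 4 members higher at an unadjusted p under 0.05, and 2 higher and 6 lower of the other glucose genes), and the median was 0.11. Of all 13594 genes tested that fit called 12 higher and 4 lower. *Xpr1* did not pass (−0.76), and the signs of *Slc2a1* (0.27), *Slc2a3* (−0.08), *Hk3* (0.05), *Aldoc* (0.41), *Pdha1* (−0.09) and *Hif1a* (−0.10) changed. With a log2 fold change of at least 0.5 also required, 7 members were higher and 4 lower, where 890 of all 13594 genes tested were higher and 1911 lower. Of the members, 4 were in upper glycolysis, 3 in lower glycolysis and 3 among the lactate and pyruvate genes. The pentose phosphate genes and the hypoxia genes had 0 each, and the other lists had 19, 10, 4 and 0. Scaling to the 75th percentile moved the median to 0.21. Array weights gave 2 glucose transport genes, and limma without trend or with *Ddx3y* gave 3 tricarboxylic acid cycle genes. Without single samples, *Slc2a1* ran from −0.25 to 0.01 (without control 4), and the ratio of *Hk3* to *Hk2*, never past the threshold, ran from −0.04 to 0.08, below 0 without Mrc1Cre Xpr1fl/fl sample 3 (−0.02), control 1 (−0.01) or control 3 (−0.04). Within the earliest date, where the smallest p is 0.25, 0 ratios could pass, and that of *Slc2a3* to *Slc2a1* was −0.03.

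Samples with the same replicate number did not deviate together (correlations −0.0333, 0.147, −0.0113 and −0.0313), so they share only a number. With the replicate block, 24 members were higher and 8 lower (median 0.31), 2 of them in glucose transport, where 3146 of all 13594 genes tested were higher and 3080 lower. With that block, 0 isozyme ratios passed by the paired exact test over 4 pairs, whose smallest p of 0.125 cannot pass. Sequencing depth is unknown, so the counting error of low genes such as *Slc2a6*, *Aldoc* and *Ldhb* could not be given.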
